A study of Mus musculus with 12 samples.

Results

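Matrix proteases and their inhibitors were taken here as every gene whose symbol begins with Adamts, Mmp or Timp followed by a digit, or by l and a digit, and 42 such genes were measured, out of 18193 genes tested. They comprised 15 ADAMTS proteases, 5 ADAMTS-like proteins, 18 matrix metalloproteinases (MMPs) and 4 tissue inhibitors of metalloproteinases (TIMPs). Together they had 78 probe sets, and each gene is described by its brightest probe set, ranked by the mean of all 12 arrays. Another 9 genes of these families, among them Adamts2, Mmp15 and Mmp28, were not analysed here.

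RNA was taken from brown fat, the tissue that burns lipid to make heat, of adult male ob/ob mice aged 3 months, which lack working leptin and were fed normal chow. The anti-FGFR1 group had 6 mice, each given 1 mg/kg of an agonistic antibody against the receptor FGFR1 once into the abdominal cavity. The control IgG group had 6 mice that were pair-fed and injected with a control IgG, at a dose the labels do not give. In both groups the tissue was taken on day 4, and each mouse gave 1 Affymetrix array, whose values are log2 expression as deposited. Both groups therefore share the leptin deficiency, and the antibody was systemic rather than directed at one cell type.

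The tissue expressed the brown adipocyte genes Ucp1, with means of 14.55 after anti-FGFR1 and 14.52 in controls, and Cidea, with 14.34 after anti-FGFR1 and 14.37 in controls. Over 10 brown adipocyte markers the mean was 11.97 ± 0.08 after anti-FGFR1 and 11.86 ± 0.14 in controls (SD, n = 6 each, exact permutation p = 0.10), with 2 called higher and 1 lower and log2 fold changes from -0.23 to 0.76. Array medians lay between 7.19 and 7.23, and arrays resembled their own group with mean correlations from 0.993 to 0.996 across probe sets. The array of anti-FGFR1 replicate 5 stood apart in skeletal muscle markers, with a mean of 6.78 for 10 genes, while the other anti-FGFR1 arrays lay at 10.72 or above and the control arrays at 9.79 or above. The difference between the 3' and 5' control probe sets of Actb and Gapdh, a measure of RNA quality, was 0.203 ± 0.027 after anti-FGFR1 and 0.161 ± 0.031 in controls (SD, n = 6 each, two-sided exact permutation p = 0.037). Means of 10 endothelial markers were lower after anti-FGFR1, at 9.55 ± 0.09 against 9.83 ± 0.08 in controls, as were those of 9 smooth muscle and pericyte markers, at 9.62 ± 0.07 against 9.99 ± 0.09 (SD, n = 6, exact permutation p = 0.0022 each, the smallest the design allows). The mean of 14 macrophage markers was 10.10 ± 0.15 after anti-FGFR1 and 9.85 ± 0.26 in controls (exact permutation p = 0.076), and that of 9 fibroblast and preadipocyte markers 9.31 ± 0.11 after anti-FGFR1 and 9.32 ± 0.12 in controls (exact permutation p = 0.86). The even fibroblast mean covers genes that went both ways, 2 called higher and 2 lower, from -0.50 to 0.76. The part of these differences in the results below was not tested, except where a fit with one of them as a covariate is given. In whole tissue, fewer cells of a type and less RNA per cell cannot be told apart.

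Matrix metalloproteinases and ADAMTS proteases are zinc enzymes that are secreted or held at the cell surface, where they cut collagens, proteoglycans and other matrix proteins. Most are made as inactive precursors, and TIMPs block the active enzymes by binding their catalytic site. In fat, matrix turnover makes room for growing adipocytes and vessels. ADAMTS-like proteins share the accessory domains of the ADAMTS family but have no protease domain, and several bind fibrillin microfibrils.

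Of the 42 genes, 2 were higher and 4 were lower after anti-FGFR1 (limma adjusted p under 0.05), and 36 did not pass. Adamts12 and Adamts15 rose, and Mmp11, Timp4, Adamtsl4 and Adamtsl5 fell. The share called was 14.3%, beside 8.03% of all genes tested, with 4.76% higher beside 2.94% and 9.52% lower beside 5.09%. The median log2 fold change of the 42 genes was 0.02, beside 0.01 over all genes, and their median absolute change was 0.074, beside 0.073. In 4 genes, 9.52%, the groups did not overlap, beside 5.12% of all genes. Over all genes 63.4% of calls were lower as deposited and 50.9% after a second quantile normalization, while among the 42 genes both gave 2 higher and 4 lower. By family, 2 of 15 ADAMTS proteases rose, 2 of 5 ADAMTS-like proteins fell, 1 of 18 MMPs fell and 1 of 4 TIMPs fell. Several probe sets were present for 21 of the 42 genes, and in 12 of these all sets had the same sign.

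**Figure D1:**
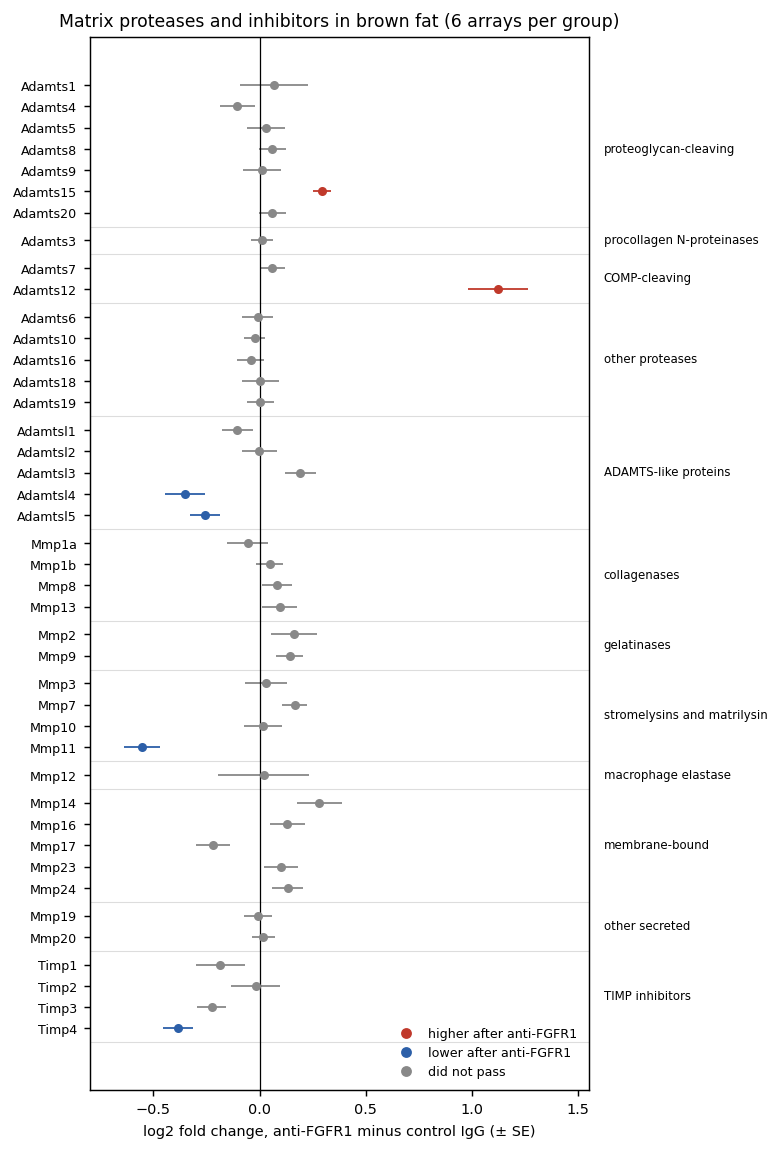
Log2 fold change, anti-FGFR1 minus control IgG, with its limma SE, for all 42 genes in rows grouped by role (6 arrays per group). Adamts12 at 1.12 lies far to the right of the other genes, Adamts15 at 0.29 is the other rise, Mmp11 at -0.55 is the lowest value, and all 4 TIMPs lie below 0, Timp2 at -0.02 (0.01 after a second quantile normalization).

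Adamts12, a secreted protease that cuts cartilage oligomeric matrix protein (COMP), changed most. Its lowest, median and highest log2 values were 9.32, 9.64 and 9.92 on the anti-FGFR1 arrays, against 8.15, 8.54 and 8.96 on the control arrays. All 6 anti-FGFR1 arrays lay above every control. The log2 fold change was 1.12 ± 0.14 (SE, limma adjusted p = 0.00028), a 2.18-fold rise. In both groups the array with the highest Adamts12 also had the highest macrophage marker mean (anti-FGFR1 replicate 5 and control IgG replicate 6), and the array with the lowest Adamts12 had the lowest (replicate 1 in each group). Among controls, replicate 6 was also highest and replicate 1 lowest in the fibroblast and endothelial means. Within its group, anti-FGFR1 replicate 1 was also lowest in the fibroblast, endothelial and smooth muscle means, but replicate 5 was highest in none of these. Adjusted for the macrophage mean, Adamts12 was at 0.81 ± 0.07 (limma adjusted p = 4.2e-05). That mean was 10.10 after anti-FGFR1 and 9.85 in controls (exact permutation p = 0.076), with log2 fold changes above 0 in 13 of its 14 genes. A fit with it, here and below, therefore also takes up part of any group difference that tracks it. Its other probe set was dim, at 4.43 ± 0.12 after anti-FGFR1 and 4.28 ± 0.05 in controls (SD, n = 6), differed by 0.15 ± 0.06 and did not pass. The mean of both sets gave 0.64 ± 0.08 (limma adjusted p = 0.00044). Adamts7, the relative that also cuts COMP, differed by 0.06 ± 0.06 with overlapping groups, and Comp itself by -0.06 ± 0.08.

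The sequence before the start of Adamts12 is shown because this gene had the largest change. RefSeq gives it on the assembly GRCm38.p6, and here and below the 250 bases before a gene's start are printed 5' to 3' on the gene's strand. Capitals mark each match on either strand to 4 motifs that were searched: AP-1 (TGANTCA), PEA3 (AGGAAG), the TATA box (TATAAA) and the GC box (GGGCGG).
Adamts12, GRCm38.p6 chr15:11064523-11064772, + strand: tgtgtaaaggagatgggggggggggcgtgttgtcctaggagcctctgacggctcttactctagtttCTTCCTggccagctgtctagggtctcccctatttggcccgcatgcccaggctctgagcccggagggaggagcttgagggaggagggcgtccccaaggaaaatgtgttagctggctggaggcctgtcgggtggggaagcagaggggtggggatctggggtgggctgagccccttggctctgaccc
The window holds 1 PEA3 match, on the opposite strand at position -184 from the start, and 29.5% of all promoter windows in the table hold at least 1 such match. A match is a description of the letters and not of binding.

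Adamts15 belongs to the ADAMTS enzymes that cut aggrecan and versican, the large proteoglycans of the matrix. Its lowest, median and highest values were 7.40, 7.48 and 7.55 after anti-FGFR1, against 7.13, 7.19 and 7.23 in controls. The rise was small but even, with all 6 anti-FGFR1 arrays above every control. It amounted to 0.29 ± 0.04 (SE, limma adjusted p = 0.00053), a 1.23-fold change, from the only probe set of the gene. The 6 other enzymes of this role did not pass. Adamts1, which is induced in many tissues by hormones and injury, varied widely, with 8.59, 8.88 and 9.05 after anti-FGFR1 against 8.13, 8.85 and 9.27 in controls. Its difference was 0.07 ± 0.16 (95% interval -0.28 to 0.41). Adamts4 had 6.58, 6.63 and 6.89 after anti-FGFR1 against 6.56, 6.86 and 6.999 in controls, a difference of -0.11 ± 0.08. Its dimmer probe set was at -0.29 ± 0.09 and did not pass either (limma adjusted p over all probe sets = 0.066).

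Adamts5, a main aggrecan-cutting enzyme of mouse cartilage, had 9.24, 9.62 and 9.72 after anti-FGFR1 against 9.26, 9.54 and 9.61 in controls. The difference was 0.03 ± 0.09 (95% interval -0.16 to 0.22), and its 4 probe sets split evenly in sign between -0.04 and 0.03. Adamts9, which also cuts versican, had 9.52, 9.67 and 9.81 after anti-FGFR1 against 9.35, 9.68 and 9.91 in controls. It differed by 0.01 ± 0.09, with its other sets at -0.19 and 0.13. The groups overlapped in both genes, with 3 anti-FGFR1 arrays above and 1 below every control in Adamts5. Adamts8 and Adamts20 each differed by 0.06. Adamts3, a procollagen N-proteinase, which trims the amino end of procollagens, differed by 0.01, and the remaining ADAMTS proteases (Adamts6, Adamts10, Adamts16, Adamts18 and Adamts19) ranged from -0.04 to 0.0031.

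Of the 5 ADAMTS-like proteins, 2 fell. Adamtsl4, which binds fibrillin microfibrils and whose loss in humans displaces the eye lens, had 7.81, 8.19 and 8.38 after anti-FGFR1 against 8.33, 8.46 and 8.67 in controls. In 5 of 6 anti-FGFR1 arrays it lay below every control. The log2 fold change was -0.35 ± 0.09 (limma adjusted p = 0.032). Adamtsl5, another fibrillin-binding member, had 7.27, 7.42 and 7.66 after anti-FGFR1 against 7.54, 7.74 and 7.82 in controls. It was below every control on 4 of 6 arrays, at -0.26 ± 0.07 (limma adjusted p = 0.036), and its second probe set was at -0.27 ± 0.09 (limma adjusted p over all probe sets = 0.070).

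Both calls were near the threshold. The 3' minus 5' difference used as a covariate here and below itself differed between the groups, so that fit also takes up part of any group difference that tracks it. Adjusted for the 3' minus 5' difference, Adamtsl4 was at -0.26 ± 0.12 (limma adjusted p = 0.28) and Adamtsl5 at -0.19 ± 0.09 (limma adjusted p = 0.29). Adamtsl4 also lost its call when adjusted for the macrophage mean (-0.35, limma adjusted p = 0.059), and without any one of control IgG replicates 2, 3 and 5 or anti-FGFR1 replicates 1, 3 and 5, at -0.40 to -0.29 over all 12 omissions. Adamtsl5 lost it without any one of replicates 1, 2, 3 and 5 of either group, at -0.30 to -0.22. Of the other members, Adamtsl3 differed by 0.19 ± 0.07 (limma adjusted p = 0.14) and passed only without control IgG replicate 1 (0.25, limma adjusted p = 0.013). Adamtsl1 was at -0.11 ± 0.07, and Adamtsl2, whose loss in humans causes geleophysic dysplasia, at -0.0017 ± 0.08.

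The windows before both starts are shown because these are the ADAMTS-like genes that passed.
Adamtsl4, GRCm38.p6 chr3:95687918-95688167, - strand: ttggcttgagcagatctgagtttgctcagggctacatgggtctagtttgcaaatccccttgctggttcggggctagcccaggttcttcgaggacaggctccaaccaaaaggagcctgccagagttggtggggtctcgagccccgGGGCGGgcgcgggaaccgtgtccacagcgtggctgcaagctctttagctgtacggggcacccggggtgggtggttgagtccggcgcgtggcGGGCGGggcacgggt
Adamtsl5, GRCm38.p6 chr10:80348449-80348698, - strand: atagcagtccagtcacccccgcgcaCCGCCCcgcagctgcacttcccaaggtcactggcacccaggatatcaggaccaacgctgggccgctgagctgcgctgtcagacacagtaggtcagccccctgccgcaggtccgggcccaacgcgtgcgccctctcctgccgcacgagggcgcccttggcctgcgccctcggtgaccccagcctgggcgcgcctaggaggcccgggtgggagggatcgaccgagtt
Adamtsl4 holds 2 GC box matches and Adamtsl5 holds 1, and 32.7% of all windows hold at least 1.

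**Figure D2:**
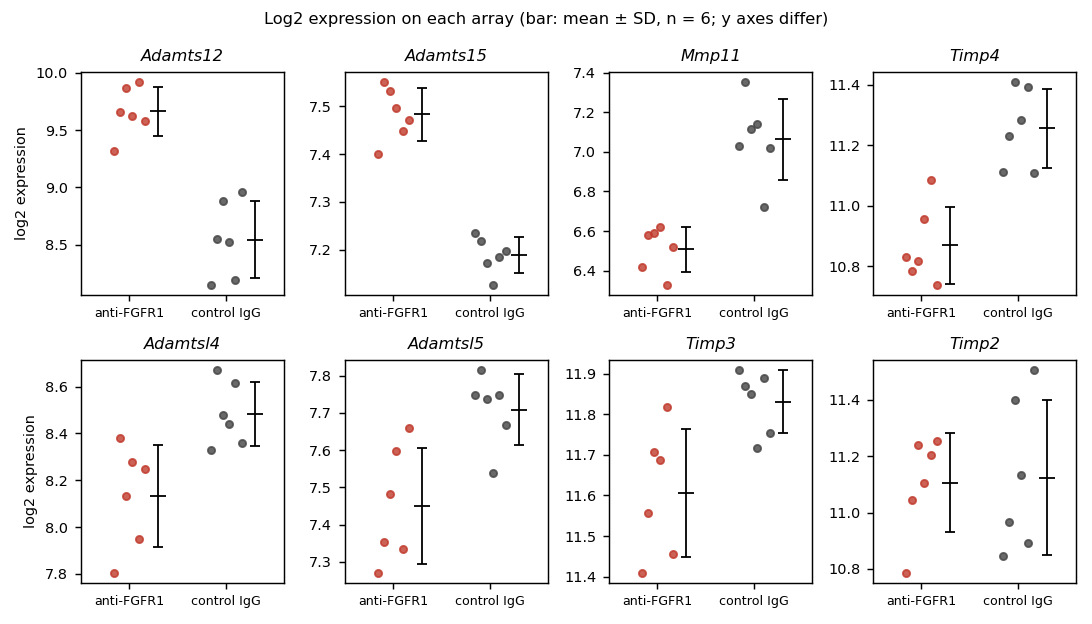
Log2 expression on each array for the 6 genes that passed and for Timp3 and Timp2, with points for single arrays, anti-FGFR1 on the left and control IgG on the right, and bars for the mean ± SD (n = 6, y axes differ). The groups are apart in Adamts12, Adamts15, Mmp11 and Timp4 and overlap in part in Adamtsl4, Adamtsl5 and Timp3. In Timp2 they overlap apart from 1 low anti-FGFR1 array and the highest control arrays.

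Mmp11, stromelysin-3, was the only MMP that passed. It has a single probe set, with a mean of 6.79 over all arrays, below the median of 7.99 over all genes. Unlike most secreted MMPs, it is activated inside the cell by the convertase furin. Its lowest, median and highest values were 6.33, 6.55 and 6.62 after anti-FGFR1, against 6.72, 7.07 and 7.35 in controls. All 6 anti-FGFR1 arrays lay below every control, and the log2 fold change was -0.55 ± 0.09 (SE, limma adjusted p = 0.0013), a 1.47-fold lower level. The call held under all 8 other settings that kept the gene and without each of the 12 arrays in turn, at -0.62 to -0.50. The window before its start is shown because no other MMP passed.
Mmp11, GRCm38.p6 chr10:75932503-75932752, - strand: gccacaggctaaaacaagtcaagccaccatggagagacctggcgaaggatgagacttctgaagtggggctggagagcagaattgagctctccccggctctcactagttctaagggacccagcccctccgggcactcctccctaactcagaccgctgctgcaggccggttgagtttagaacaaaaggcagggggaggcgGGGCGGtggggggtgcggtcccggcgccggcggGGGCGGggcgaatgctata
It holds 2 GC box matches and none to the other motifs.

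The gelatinases cut denatured and basement membrane collagens. Mmp2, which is made by stromal cells, had 9.38, 9.75 and 9.92 after anti-FGFR1 against 9.20, 9.58 and 9.82 in controls. It differed by 0.16 ± 0.11 (95% interval -0.07 to 0.39), and its second probe set by 0.19 ± 0.09, with overlapping groups in each. Adjusted for the macrophage mean, Mmp2 was at -0.00081 ± 0.10. Mmp9, which neutrophils and macrophages store or secrete, had 7.47, 7.57 and 7.74 after anti-FGFR1 against 7.24, 7.49 and 7.57 in controls. Its difference of 0.14 ± 0.06 did not pass (limma adjusted p = 0.20), and its dimmer probe set was at -0.03. The 8 neutrophil markers measured had means of between 6.96 and 7.07 after anti-FGFR1 and between 6.80 and 7.09 in controls (n = 6 each, exact permutation p = 0.071).

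The membrane-bound MMPs work at the cell surface. Mmp14, the membrane enzyme that activates Mmp2 and is needed for mouse white fat to develop, had 8.18, 8.49 and 8.65 after anti-FGFR1 against 7.88, 8.12 and 8.49 in controls. On 3 of 6 arrays it was above every control, at 0.28 ± 0.10 (limma adjusted p = 0.12), and its 3 probe sets were all above 0. It passed when adjusted for the fibroblast mean (0.30 ± 0.07, limma adjusted p = 0.024) and without control IgG replicate 6 (0.35, limma adjusted p = 0.037), but was at 0.10 ± 0.09 when adjusted for the macrophage mean. Mmp17, held by a lipid anchor, was at -0.22 ± 0.08 (limma adjusted p = 0.11). Mmp16, Mmp23 and Mmp24 lay between 0.10 and 0.13 and did not pass, although Mmp24 did when adjusted for the macrophage mean (0.24, limma adjusted p = 0.041). The 3 probe sets of Mmp24 were at 0.13, 0.07 and -0.05, and their mean at 0.05 ± 0.05 (limma adjusted p = 0.57). For Mmp16, 3 of 4 sets lay above 0.

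Mmp12, the macrophage elastase, was the most variable of the 42 genes. Its lowest, median and highest values were 9.49, 9.79 and 10.19 after anti-FGFR1, against 9.40, 9.53 and 10.53 in controls, and its SD was 0.32 after anti-FGFR1 and 0.53 in controls. The highest control, replicate 6, also had the highest macrophage marker mean, 10.25. Control IgG replicate 4 was nearly as high in Mmp12, at 10.44, but had a macrophage mean of 9.75. Control IgG replicate 3 had a macrophage mean of 10.08 and Mmp12 at 9.59. The difference between the groups was 0.02 ± 0.21, with a 95% interval from -0.44 to 0.47, so the arrays set only a wide limit on this gene. Adjusted for the macrophage mean it was at -0.25 ± 0.22 and did not pass.

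Mmp12 is 1 of 9 measured MMP genes that follow each other on mouse chromosome 9, in the order Mmp13, Mmp12, Mmp1b, Mmp3, Mmp1a, Mmp10, Mmp8, Mmp20 and Mmp7. This cluster holds collagenases, the stromelysins Mmp3 and Mmp10 and matrilysin, but not Mmp11, and several of its genes are textbook targets of the transcription factor AP-1. None of the 9 passed limma, and 1, Mmp7, had an unadjusted p under 0.05, beside 8.03% of all genes called and 4081 of 18193 with an unadjusted p under 0.05. Their log2 fold changes ran from -0.06 (Mmp1a) to 0.17 ± 0.06 (Mmp7, limma adjusted p = 0.11). Mmp7, matrilysin, lay above every control on 4 of 6 arrays, with 8.01, 8.18 and 8.25 after anti-FGFR1 against 7.81, 8.01 and 8.11 in controls. It passed when adjusted for the macrophage mean (0.27 ± 0.05, limma adjusted p = 0.0055). Mmp3, Mmp8, Mmp10, Mmp13 and Mmp20 lay between 0.02 and 0.09, Mmp1b at 0.05. Apart from Mmp12 and Mmp7, the cluster lay below the median brightness over all genes, 7.99, where small changes are hard to see. Mmp1a, Mmp1b, Mmp20 and Mmp13 had means of 4.29 to 4.76 over all arrays, and Mmp8, Mmp3 and Mmp10 of 6.32 to 6.99. Outside the cluster, the secreted Mmp19 was at -0.0076 ± 0.07. Mmp1a and Mmp1b are close copies of each other, so their probe sets may not be fully independent.

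The same motifs were counted in the promoters of this cluster. Mmp3, Mmp10 and Mmp13 are shown as examples of the 7 cluster genes that hold both an AP-1 and a TATA box match.
Mmp3, GRCm38.p6 chr9:7445572-7445821, + strand: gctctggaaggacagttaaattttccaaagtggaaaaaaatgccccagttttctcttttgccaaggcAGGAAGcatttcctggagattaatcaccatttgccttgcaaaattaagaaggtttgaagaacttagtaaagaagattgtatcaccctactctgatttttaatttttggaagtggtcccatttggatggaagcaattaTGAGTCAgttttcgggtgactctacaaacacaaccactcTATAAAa
Mmp10, GRCm38.p6 chr9:7502092-7502341, + strand: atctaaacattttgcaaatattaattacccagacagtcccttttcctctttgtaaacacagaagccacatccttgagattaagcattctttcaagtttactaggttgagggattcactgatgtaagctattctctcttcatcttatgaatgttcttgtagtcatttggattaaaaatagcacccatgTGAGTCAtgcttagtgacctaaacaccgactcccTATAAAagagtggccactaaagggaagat
Mmp13, GRCm38.p6 chr9:7272264-7272513, + strand: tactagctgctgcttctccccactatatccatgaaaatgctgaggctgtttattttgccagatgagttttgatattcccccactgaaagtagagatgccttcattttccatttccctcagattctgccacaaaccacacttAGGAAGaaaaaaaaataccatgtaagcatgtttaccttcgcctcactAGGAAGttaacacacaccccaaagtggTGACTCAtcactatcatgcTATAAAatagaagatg
The table holds promoter windows for 27 of the 42 genes, including all 9 of the cluster and 5 of the 6 that passed. AP-1 matches were found in 8 of the 9 cluster genes (counting any listed start), in 0 of those 5 and in 6.75% of all windows. With only 1 start taken for each gene, AP-1 was found in 7 of the 27, all in the cluster, and in 6.87% of all genes with a window. A TATA box was found in 7 of the 9, in 0 of the 5 and in 12.4% of all windows. Both together occurred in 7 of the 9 and in 1.21% of all windows. GC boxes were found in 0 of the 9 and 3 of the 5, and PEA3 matches in 6 of the 9 and 2 of the 5. With 5 genes that passed, these counts are a description, with no test, and most of the cluster genes were dim. No match says only that these letters are not in this window.

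All 4 TIMPs lay below 0 in the deposited values, and 1 of them passed; after a second quantile normalization Timp2 was at 0.01. Timp4, the inhibitor made most narrowly and prominent in fat and heart, had 10.74, 10.82 and 11.08 after anti-FGFR1, against 11.11, 11.26 and 11.41 in controls. All 6 anti-FGFR1 arrays were below every control, though the closest values differed by little. The log2 fold change was -0.39 ± 0.07 (SE, limma adjusted p = 0.0038), a 1.31-fold lower level, and the second probe set was at -0.25 ± 0.08 (limma adjusted p over all probe sets = 0.070). Timp4 kept its call without each of the 12 arrays in turn (-0.43 to -0.36), but adjusted for the 3' minus 5' difference it was at -0.30 ± 0.09 and lost it (limma adjusted p = 0.076).

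Timp3, which stays bound to the matrix and also blocks ADAM17 and ADAMTS proteases, depended on the probe set. The brightest set had 11.41, 11.62 and 11.82 after anti-FGFR1 against 11.72, 11.86 and 11.91 in controls, with 5 of 6 anti-FGFR1 arrays below every control. It was at -0.23 ± 0.07 and just missed the threshold (limma adjusted p = 0.060). Its 3 other sets were at -0.24 ± 0.06, -0.35 ± 0.07 and -0.27 ± 0.07, and all 3 passed (limma adjusted p over all probe sets 0.027, 0.0098 and 0.030). In the sets at -0.24 and -0.27 all 6 anti-FGFR1 arrays lay below every control. The set at -0.24 had 10.31, 10.53 and 10.67 against 10.71, 10.73 and 10.85. The set at -0.27 had 9.22, 9.53 and 9.66 against 9.70, 9.75 and 9.88. With the mean of the 4 sets Timp3 passed at -0.27 ± 0.06 (limma adjusted p = 0.0093), and it also passed without anti-FGFR1 replicate 5 (-0.27, limma adjusted p = 0.024), with genes below the median brightness left out (limma adjusted p = 0.034) and with a variance trend (limma adjusted p = 0.039). The brightest set did not pass in the other settings, nor in 11 of the 12 omissions of an array. Adjusted for the 3' minus 5' difference it was at -0.24 ± 0.09 (limma adjusted p = 0.18). After a second quantile normalization it was at -0.20 ± 0.06 (limma adjusted p = 0.068). Over all 42 genes, 2 of 78 probe sets rose and 7 fell, beside 6.90% of all probe sets called, and 3 of those that fell belonged to Timp3.

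Timp1, the inducible TIMP of inflamed and remodelling tissue, had 7.40, 7.70 and 8.07 after anti-FGFR1 against 7.62, 7.88 and 8.24 in controls. It differed by -0.19 ± 0.11 (95% interval -0.43 to 0.06). Timp2, the TIMP that joins Mmp14 in activating Mmp2, had 10.79, 11.15 and 11.25 after anti-FGFR1 against 10.85, 11.05 and 11.51 in controls. It differed by -0.02 ± 0.12 (95% interval -0.27 to 0.23), and its 6 probe sets lay between -0.10 and 0.13, with 3 on each side of 0. Adjusted for the macrophage mean both passed, Timp1 at -0.38 ± 0.10 (limma adjusted p = 0.026) and Timp2 at -0.28 ± 0.05 (limma adjusted p = 0.0049). Adjusted for the 3' minus 5' difference neither passed, Timp1 being at -0.05 and Timp2 at 0.12.

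**Figure D3:**
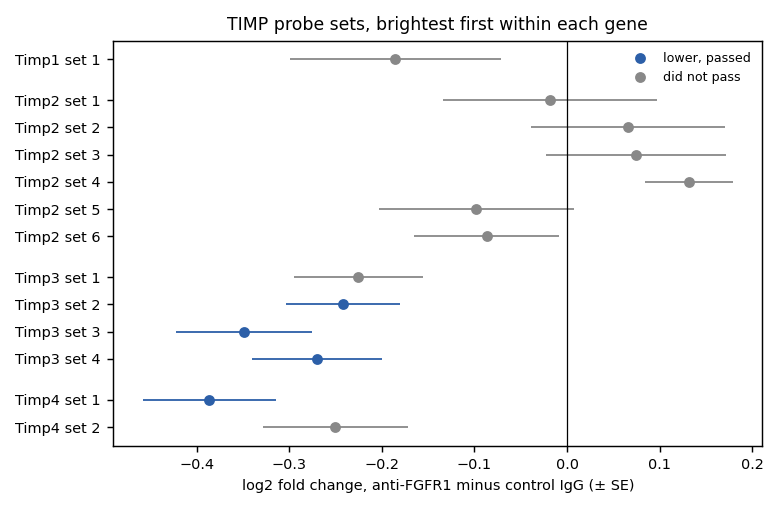
Log2 fold change, anti-FGFR1 minus control IgG, with its SE, for each of the 13 TIMP probe sets, brightest first within a gene (6 arrays per group, p adjusted over all probe sets). All 4 Timp3 sets and both Timp4 sets lie below 0, 4 of these 6 passed, and the 6 Timp2 sets lie on both sides of 0.

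Timp1, Timp3 and Timp4 each lie within a synapsin gene in the reference annotation, Timp1 in Syn1, Timp3 in Syn3 and Timp4 in Syn2. The synapsins are known for their work in nerve endings. Syn1 differed by 0.15 ± 0.04 (limma adjusted p = 0.053), Syn3 by 0.02 ± 0.07 and Syn2 by 0.17 ± 0.09, none of them called. The windows before Timp3 and Timp4 are shown because these are the TIMPs with probe sets that passed.
Timp3, GRCm38.p6 chr10:86300162-86300411, + strand: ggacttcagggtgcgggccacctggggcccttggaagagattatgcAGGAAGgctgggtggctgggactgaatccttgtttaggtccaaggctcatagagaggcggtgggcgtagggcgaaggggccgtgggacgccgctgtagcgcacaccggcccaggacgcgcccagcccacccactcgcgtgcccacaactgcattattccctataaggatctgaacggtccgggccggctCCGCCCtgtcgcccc
Timp4, GRCm38.p6 chr6:115252206-115252455, - strand: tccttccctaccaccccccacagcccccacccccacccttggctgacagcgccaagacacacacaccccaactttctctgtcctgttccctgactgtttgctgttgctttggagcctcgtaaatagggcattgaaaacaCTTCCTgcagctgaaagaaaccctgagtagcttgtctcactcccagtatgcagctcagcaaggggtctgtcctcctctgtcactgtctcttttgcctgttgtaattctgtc
Timp3 holds 1 PEA3 and 1 GC box match, and Timp4 holds 1 PEA3 match.

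Other genes that act with these proteases were counted from lists drawn up from their known roles. Of 14 measured activators and regulators (the plasminogen system, proprotein convertases, and inhibitors or receptors of MMPs), limma called 0 higher and 1 lower, 4 had an unadjusted p under 0.05, and the list had a median log2 fold change of 0.05, beside 8.03% of all genes called and 4081 of 18193 with an unadjusted p under 0.05. The gene that fell was Furin, the convertase that activates Mmp11, membrane-bound MMPs and ADAMTS precursors. It had 9.12, 9.23 and 9.41 after anti-FGFR1 against 9.39, 9.47 and 9.63 in controls, with 5 of 6 anti-FGFR1 arrays below every control, and changed by -0.21 ± 0.06 (limma adjusted p = 0.032). This call was lost after a second quantile normalization (-0.17, limma adjusted p = 0.062), when adjusted for the 3' minus 5' difference (-0.19, limma adjusted p = 0.20) and without any one of 7 arrays (control IgG replicates 2, 3 and 5 and anti-FGFR1 replicates 1, 3, 4 and 6), while its fold change stayed between -0.24 and -0.18 over all 12 omissions. Plaur, the urokinase receptor, was at -0.35 ± 0.15, and Reck, a membrane inhibitor of MMPs, at 0.07 ± 0.09, and neither passed. The convertases Pcsk5 (-0.18 ± 0.07, limma adjusted p = 0.14) and Pcsk6 (-0.18 ± 0.08, limma adjusted p = 0.22) did not pass either. Of the 5 probe sets of Pcsk5, 3 lay below 0. Furin, Plaur, Pcsk5 and Pcsk6 were the 4 genes with an unadjusted p under 0.05. All 4 lay below 0, and the other 10 genes of the list lay above 0.

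Of 18 other extracellular metalloproteinases and their enhancers, 2 rose and 1 fell, with a median of 0.05, beside 2.94% of all genes called higher and 5.09% lower. Adam12, a membrane-anchored relative of the ADAMTS enzymes, had 10.75, 10.82 and 11.02 after anti-FGFR1 against 10.12, 10.32 and 10.58 in controls. All 6 anti-FGFR1 arrays were above every control, and it rose by 0.51 ± 0.08 (limma adjusted p = 0.0015), with both probe sets called. Its close relative Adam19 rose by 0.28 ± 0.08 (limma adjusted p = 0.037), a call lost when adjusted for the macrophage mean (0.18, limma adjusted p = 0.15) and without any one of 8 arrays. Those were control IgG replicates 1, 3 and 5 and anti-FGFR1 replicates 2 to 6, and its values over all 12 omissions ran from 0.24 to 0.33. Pcolce2, which enhances the trimming of procollagen at its carboxyl end, had 6.89, 7.08 and 7.54 after anti-FGFR1 against 7.60, 7.76 and 8.20 in controls. The groups did not overlap, and the log2 fold change was -0.69 ± 0.12 (limma adjusted p = 0.0025), while its relative Pcolce was at 0.08 ± 0.08.

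Of 20 measured matrix substrates, 3 rose and 1 fell, with a median of 0.12, beside the same shares of all genes. Bgn, the small proteoglycan biglycan, had 11.95, 12.40 and 12.53 after anti-FGFR1 against 11.51, 11.83 and 12.11 in controls and rose by 0.55 ± 0.11 (limma adjusted p = 0.0059). Adjusted for the macrophage mean it was at 0.33 and still passed. Eln, elastin, whose fibres form on a fibrillin scaffold, had 9.31, 9.54 and 9.73 after anti-FGFR1 against 9.82, 10.03 and 10.30 in controls, with no overlap. Its log2 fold change was -0.48 ± 0.09 (limma adjusted p = 0.0030), a call lost when adjusted for the 3' minus 5' difference (-0.40, limma adjusted p = 0.057). Vcan, versican, a substrate of Adamts1, Adamts5, Adamts9 and Adamts15, rose by 0.21 ± 0.06 (limma adjusted p = 0.033) with 6 of its 8 probe sets above 0. Col3a1, a fibrillar collagen, rose by 0.42 ± 0.12 (limma adjusted p = 0.046). Neither passed when adjusted for the 3' minus 5' difference (Vcan 0.24, Col3a1 0.53) or for the macrophage mean (Vcan 0.12, Col3a1 0.17). Col3a1 also lost its call with arrays centred on their medians (limma adjusted p = 0.055) and when its probe sets were averaged (0.56, limma adjusted p = 0.057). Vcan also lost its call without any one of 8 arrays (control IgG replicates 1, 2, 4 and 5 and anti-FGFR1 replicates 2, 3, 5 and 6), and Col3a1 lost it without any array but control IgG replicate 6 or anti-FGFR1 replicate 1. Over all 12 omissions Vcan stayed between 0.18 and 0.24 and Col3a1 between 0.35 and 0.51.

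**Figure D4:**
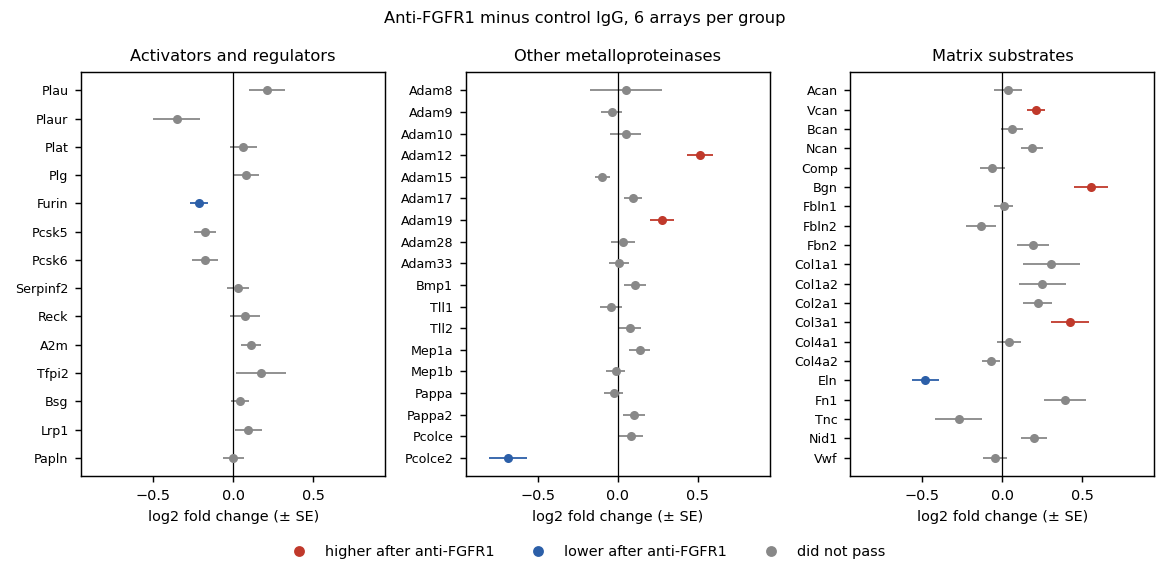
Log2 fold change, anti-FGFR1 minus control IgG, with its SE, for 14 activators and regulators, 18 other metalloproteinases and enhancers, and 20 matrix substrates (6 arrays per group). Adam12, Adam19, Bgn, Col3a1 and Vcan passed above 0, and Furin, Pcolce2 and Eln passed below 0.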

How the data were processed

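RNA from 12 mice was measured on 1-colour Affymetrix arrays with biotin as the label, 6 anti-FGFR1 and 6 control IgG, and the labels give separate mice, so replicates are animals. The deposited log2 values come from RMA, with limma also named, per the submitters' processing notes, without versions. RMA corrects background, normalizes arrays together and summarises probes, which pulls changes of dim probe sets toward 0. The table holds 45101 probe sets, of which 64 are controls. By the platform's probe annotation, 34945 had a single gene and 932 several, and symbols were updated by Entrez identifier, found for 34741 in the RefSeq table of GRCm38.p6. Each gene kept its brightest probe set, which gave 18193 genes.

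The comparison used limma 3.58.1 under R 4.3.3 (lmFit, eBayes, two-sided, no covariate, Benjamini-Hochberg over all genes, or over all single-gene probe sets for single sets). Each log2 fold change is the anti-FGFR1 mean minus that of control IgG. Where an error follows a fold change it is the moderated SE, and some genes that did not pass also have the 95% interval. Marker means were compared by exact permutation over 924 assignments. The gene test was tested on simulated data. Arrays give no counts, and their number limits the precision. A genome build for the values is not given in the sources used here. Promoters are RefSeq's, matched by symbol.

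Members, gene lists, tests and most alternatives were chosen with earlier results of these data known. The genes named are all members that passed, the TIMPs, Mmp2, Mmp9, Mmp12, Mmp14, Adamts1, Adamts4, Adamts5 and Adamts9 with values by group, other members by range, and up to 4 genes that passed in each pathway list. Comp, Plaur, Reck, Pcsk5, Pcsk6, Pcolce, the synapsins and remarks on Mmp7, Mmp16, Mmp17, Mmp24, Adamts16 and Adamtsl3 were added after values were seen. Alternatives were a second quantile normalization, centring on array medians, a replicate block, 3 covariates, the mean of probe sets, a filter on dim genes, a variance trend and leaving out each array.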

Additional observations from a re-analysis of the deposited data

Results flagged for a closer look

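Of 84 pairs of gene and group examined for an array far from the others of its group, 1 stood out, where chance alone gives about 1 in 20. Adamts20 was 3.50 on the array of anti-FGFR1 replicate 5, below the next lowest anti-FGFR1 array at 3.64. The gap was 0.691 of the group's range, above the limit of 0.625 for 6 arrays. Adamts20 is the dimmest of the 42 genes, with a mean of 3.61, and it did not pass limma between the groups (0.06 ± 0.06).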

How the results depend on the processing

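Adamts12, Adamts15 and Mmp11 kept their direction and call under every setting that included them. With the 3' to 5' covariate, 688 genes were called against 1461, members called lower came to 1 against 4, and pathway genes called came to 4 against 8. With the macrophage mean as a covariate 4 members were higher against 2, and 2137 genes were called. With genes below the median brightness left out, 1 member was higher, because Adamts15 was not tested. Leaving out 1 array at a time gave 1043 to 1698 genes, 2 to 3 members higher, 2 to 4 members lower and 4 to 9 pathway genes. Of mice sharing a replicate number across groups, 3 of 6 pairs deviated together with a correlation over 0.1 (range -0.29 to 0.33), and 5 of 12 arrays correlated best with their own number, which does not meet the rule set for treating the numbers as pairs (every pair over 0.1). Whether they mark a shared factor was not tested further. With the replicate block, 1337 genes, 2 members higher, 3 members lower and 9 pathway genes were called, Adamtsl5 losing its call at an unchanged -0.26 (limma adjusted p = 0.085). The cause of these changes was not tested, apart from the filter on brightness. No called result reversed. Below the median brightness lay 25 of the 42 genes, where small changes are hard to see.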
